A study of Arabidopsis thaliana with 36 samples.

Results

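Cuticular wax synthesis genes were followed in leaf 6 of Arabidopsis thaliana over 4 harvests. The set comprised 10 genes chosen by locus: the elongation genes KCS1, CER6, KCR1 and CER2, the alkane branch genes CER1, CER3 and MAH1, the alcohol branch genes CER4 and WSD1, and the transcription factor gene MYB96. Of these, 9 were among the 19437 genes of the filtered expression table. MAH1 (AT1G57750) was not among them and has no values here. The set was chosen with earlier results of these data known, so its counts beside shares of all genes are descriptive. Leaves came from TM1 and TM2, which are isolates of the atx1 atx3 atx4 triple mutant, and from WT Col-0. All mutant plants carried the alleles SALK_149002 (atx1), GABI_128H01 (atx3) and SALK_060156 (atx4), and the isolates descend from different F1 plants of one cross, so each may hold its own background mutations. ATX1, ATX3 and ATX4 are histone methyltransferases that act on H3K4, a mark of active genes. The mutant plants had bolted by T0 while WT plants were vegetative, except that 1 WT plant had bolted at T6. Genotype and bolting therefore cannot be told apart. Days were counted after stratification, and harvests T0, T2, T4 and T6 fell on days 25, 27, 29 and 31. Each of the 12 groups is 1 pool of 10 ground leaves that was split into 3 libraries, so the spread given below as SD (n = 3) is that of libraries and not of plants.

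The cuticle seals the aerial surface of a plant, and its waxes are made in epidermal cells. Very-long-chain acyl chains are built by the fatty acid elongase of the endoplasmic reticulum, whose condensing enzyme (KCS) sets chain length and whose reductase (KCR) acts next in the cycle. The chains then pass to an alkane-forming branch, in which CER1 and CER3 act together and MAH1 oxidizes the alkane, or to an alcohol-forming branch, in which CER4 makes primary alcohols and WSD1 joins them to acyl chains as wax esters. MYB96 is an activator of wax genes known from drought and abscisic acid responses.

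Libraries held between 4405524 and 11709917 reads on the listed genes, as recovered from the FPKM values (fragments per kilobase of gene, scaled to library size). ATX4 was between 1.54 and 4.26 FPKM in the 24 mutant libraries and between 3.79 and 5.95 in the 12 WT libraries. ATX1 was between 1.61 and 7.34 FPKM in mutant libraries and between 3.25 and 8.24 in WT libraries. ATX3 was between 3.95 and 7.63 FPKM in mutant libraries and between 2.41 and 6.3 in WT libraries, and was not lower in the mutants. The libraries sample the 3′ part of transcripts, and where their reads lie relative to the insertions is not given in the sources used here, so these levels do not check the ATX3 genotype.

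Wax genes were higher in both mutant isolates than in WT at T0 (6 of the 9 measured) and T2 (5 of 9) by adjusted p. Only 1 of 9 was at T4 and at T6. Of all genes, 6.84%, 11.3%, 4.10% and 2.68% were higher at T0, T2, T4 and T6. With median-ratio scaling the count of wax genes at T0 was 5, without MYB96. CER1, CER6 and WSD1 differed most, and both isolates were set against the same WT libraries. Changes below are on the log2(FPKM + 1) scale, which understates those of low genes, and adjusted p-values are from limma with Benjamini-Hochberg adjustment over all genes. The 2-fold rule used for calls required an adjusted p under 0.05 together with a change of 2-fold or more in TM1 and in TM2, both in one direction. CER6 and CER1 were called higher at T0, 2 of 9 genes against 0.869% of all genes. CER1 and WSD1 were called higher at T2, 2 of 9 against 1.74%. None was called higher at T4 or T6, where 0.792% and 0.417% of all genes were. None was called lower at any harvest, where 0.520%, 0.448%, 0.741% and 0.597% of all genes were called lower at T0, T2, T4 and T6.

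By adjusted p alone, 6 of the 9 were higher in both isolates at T0, against 6.84% of all genes, namely KCS1, CER6, CER2, CER1, WSD1 and MYB96. At T2 there were 5, against 11.3%, namely KCS1, CER6, CER1, WSD1 and MYB96. KCS1 was the only one at T4, where 4.10% of all genes passed, and MYB96 the only one at T6, where 2.68% passed. None was lower in both isolates by this rule, against 3.03%, 6.44%, 4.16% and 2.40% of all genes at T0, T2, T4 and T6. With median-ratio scaling CER2 was lower in both at T6 (-0.86 in TM1 and -0.41 in TM2). The median change of the 9 genes, taken as the mean of both isolates, was 0.81, 0.74, 0.07 and 0.01 at T0, T2, T4 and T6. Over all genes it was 0.04, 0.09, 0.00 and 0.07. With the libraries rescaled by median ratios, calls over all genes at T2 were 259 higher and 117 lower in place of 338 and 87, and at T6 they were 63 higher and 142 lower in place of 81 and 116.

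**Figure D1:**
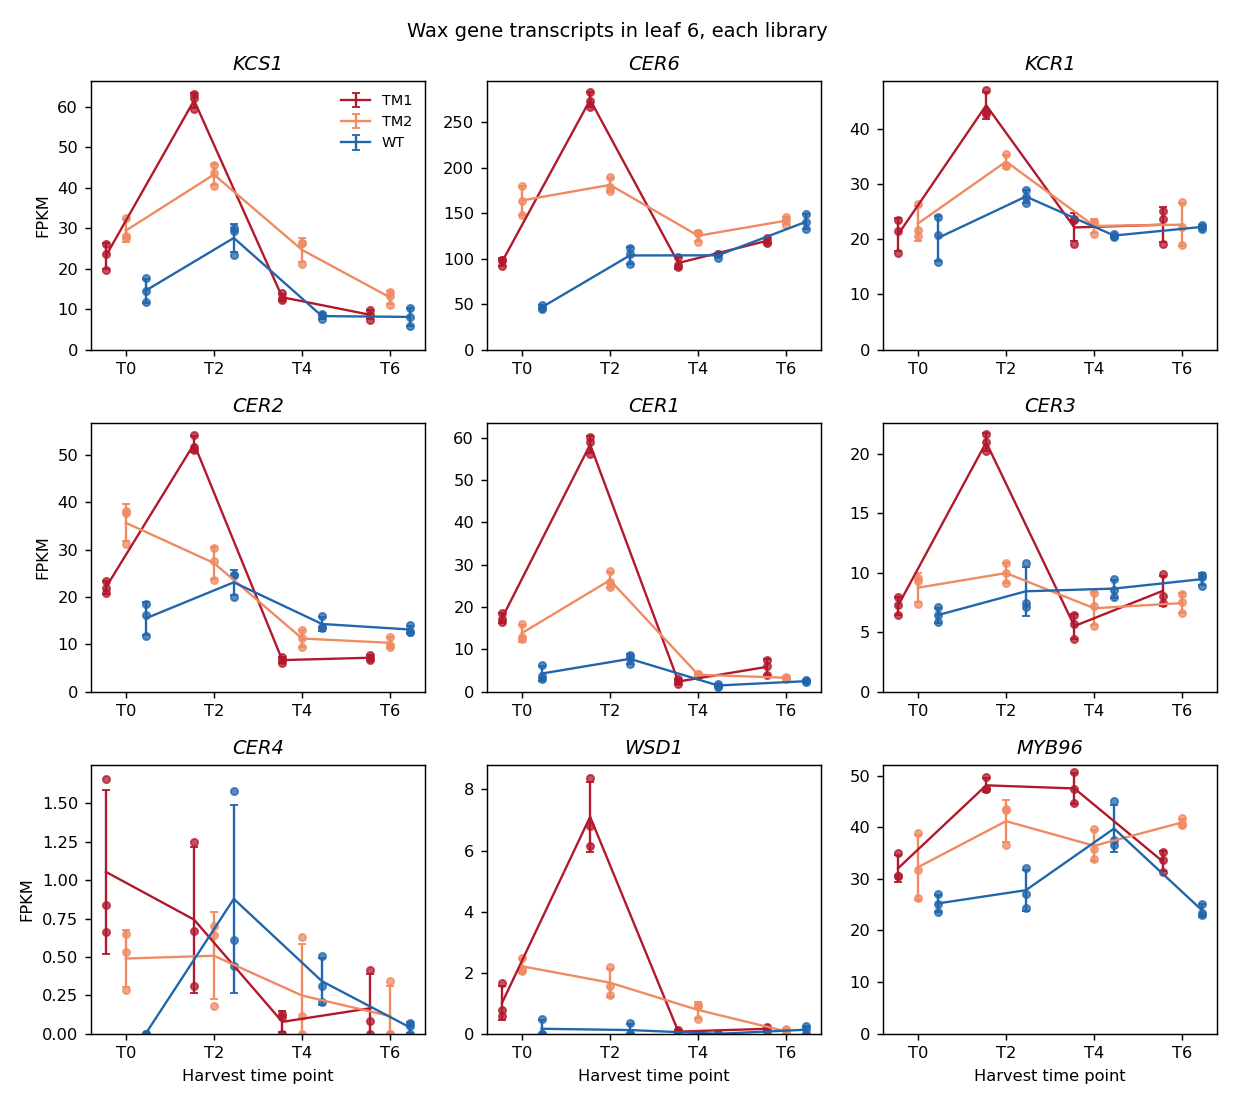
FPKM of the 9 measured wax genes by harvest (T0 to T6), with TM1, TM2 and WT drawn from left to right at each time. Points are single libraries, and lines and bars are the mean and SD of 3 libraries. In TM1, CER1 averaged 2.41 FPKM at T4, against 58.4 at T2, while CER4 was under 1.7 FPKM in every library.

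The upstream sequences of the 3 called genes and of CER2, which turned from higher to lower in TM1, are shown here, since MYB96 and related regulators act through promoter motifs. They are the 250 bases before the annotated start of each gene, from the RefSeq TAIR10.1 assembly, written 5′ to 3′ in the direction of the gene. Capitals mark matches on either strand to the MYB motifs TAACTA and TAACTG, the GCC box GCCGCC, the abscisic acid response core ACGTGT or ACGTGG, the G box CACGTG, and the L1 box TAAATGTA or TAAATGCA, which epidermal regulators bind. G box and ACGTGT or ACGTGG can share letters.

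CER6 (chr1:25715025-25715274, minus strand): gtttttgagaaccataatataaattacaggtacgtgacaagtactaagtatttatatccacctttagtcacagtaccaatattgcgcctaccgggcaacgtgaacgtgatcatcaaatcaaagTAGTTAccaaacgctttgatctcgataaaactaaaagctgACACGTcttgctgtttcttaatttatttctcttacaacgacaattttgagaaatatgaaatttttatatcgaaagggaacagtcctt
CER2 (chr4:12660437-12660686, plus strand): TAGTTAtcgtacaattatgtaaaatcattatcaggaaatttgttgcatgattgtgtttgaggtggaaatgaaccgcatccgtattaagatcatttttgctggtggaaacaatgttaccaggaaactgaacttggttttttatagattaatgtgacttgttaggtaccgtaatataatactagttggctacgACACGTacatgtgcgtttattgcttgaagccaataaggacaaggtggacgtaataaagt
CER1 (chr1:418166-418415, plus strand): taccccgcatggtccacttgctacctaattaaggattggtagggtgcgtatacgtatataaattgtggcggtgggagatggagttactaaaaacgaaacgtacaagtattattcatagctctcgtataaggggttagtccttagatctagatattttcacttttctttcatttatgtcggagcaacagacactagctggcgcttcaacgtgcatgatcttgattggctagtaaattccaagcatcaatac
WSD1 (chr5:14767176-14767425, plus strand): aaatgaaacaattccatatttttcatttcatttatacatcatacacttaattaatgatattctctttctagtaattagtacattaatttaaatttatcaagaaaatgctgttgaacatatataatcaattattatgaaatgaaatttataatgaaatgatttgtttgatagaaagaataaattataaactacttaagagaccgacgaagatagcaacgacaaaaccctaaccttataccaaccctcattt

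CER6 and CER2 each held TAACTA and ACGTGT, both on the opposite strand. In CER6 these matches began 127 and 87 bases before the gene start. Among 27443 such windows of protein-coding genes, 20.6% held TAACTA and 10.5% held ACGTGT. None of the letters searched was in the windows of CER1, WSD1, KCS1, KCR1 or CER3. CER4 held ACGTGG (8.23% of windows), MAH1 held TAACTA, and MYB96 held the L1 box TAAATGCA (1.57% of windows). A match is a run of letters in this window and not a measured binding site.

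The elongation genes include the most abundant transcript of the set. CER6 (AT1G68530, also KCS6) encodes the condensing enzyme for the longest wax chains, and at a mean of 132.6 FPKM over 36 libraries its level was above that of 96.5% of genes in the table. At T0, it was at 91.6, 98.7 and 98.8 FPKM in TM1 libraries and 180.1, 163.2 and 148.4 in TM2 libraries, against 44.6, 45.6 and 49.0 in WT libraries. The groups did not overlap, and the TM2 libraries were also above those of TM1. The log2 change against WT was 1.04 ± 0.07 (SE) in TM1 (adjusted p = 4.5e-12) and 1.80 ± 0.07 in TM2 (adjusted p = 3.6e-18). With median-ratio scaling the change in TM1 was 0.98, under 2-fold, so the T0 call rests on the scaling. At T2 the isolates changed order, with 283.2, 273.6 and 266.9 FPKM in TM1 and 174.6, 189.4 and 179.0 in TM2, against 93.6, 111.5 and 105.3 in WT. The log2 change was 1.40 in TM1 (adjusted p = 2.2e-15) and 0.80 in TM2 (adjusted p = 1.4e-09). By T4 TM1 libraries overlapped those of WT, while every TM2 library was above them. CER6 averaged 95.2 ± 6.05 FPKM in TM1 and 125.1 ± 5.55 in TM2, against 103.6 ± 2.2 in WT. Only TM2 was higher there (0.27, adjusted p = 0.00826). At T6 the averages were 119.5 ± 2.75 in TM1 and 141.8 ± 4.28 in TM2, against 140.6 ± 8.05 in WT, and the change against WT was -0.23 in TM1 (adjusted p = 0.0472). How reads shared between CER6 and its closest relative KCS5 were counted is not given in the sources used here.

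KCS1 (AT1G01120) encodes another condensing enzyme of wax chain elongation. It was at 23.7, 26.1 and 19.7 FPKM in TM1 and 27.5, 32.6 and 28.1 in TM2 at T0, against 17.6, 11.7 and 14.4 in WT. T2 libraries were at 62.1, 59.5 and 63.2 FPKM in TM1 and 40.5, 43.6 and 45.7 in TM2, against 23.5, 30.0 and 29.3 in WT. Every mutant library was above every WT library at both times. The log2 change was 0.64 in TM1 and 0.98 in TM2 at T0, and 1.14 and 0.64 at T2, each past the adjusted threshold. At T4 KCS1 was the one member of the 9 higher in both isolates, by 0.59 ± 0.15 in TM1 (adjusted p = 0.00575) and 1.46 ± 0.15 in TM2 (adjusted p = 4.7e-09). Its T4 libraries were at 12.2, 12.7 and 13.9 FPKM in TM1 and 21.1, 26.4 and 26.4 in TM2, against 8.86, 7.45 and 8.53 in WT. At T6 the averages were 8.59 ± 1.12 in TM1 and 12.9 ± 1.7 in TM2, against 8.08 ± 2.21 in WT, and only TM2 passed (0.63, adjusted p = 0.00348).

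KCR1 (AT1G67730), the ketoacyl reductase of the elongase, moved least among the enzymes of this step. It was between 15.9 and 47.1 FPKM over all 36 libraries. At T2 it averaged 44.3 ± 2.45 FPKM in TM1 and 34.1 ± 1.24 in TM2, against 27.7 ± 1.14 in WT, with every mutant library above every WT library. The change of 0.66 in TM1 passed the test (adjusted p = 0.00023), and that of 0.29 in TM2 did not (adjusted p = 0.11). At T0, T4 and T6 neither isolate passed, with changes between 0.01 and 0.18.

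CER2 (AT4G24510), which shares both upstream motifs with CER6, encodes a BAHD family protein that CER6 needs to reach the longest chains. At T0 it was at 23.4, 21.9 and 20.8 FPKM in TM1 and 38.1, 37.7 and 31.2 in TM2, against 16.1, 18.6 and 11.7 in WT, with no overlap between mutant and WT libraries. The log2 change was 0.51 in TM1 (adjusted p = 0.0104) and 1.17 in TM2 (adjusted p = 6.2e-08). Its T2 libraries were at 51.7, 51.0 and 54.3 FPKM in TM1 and 23.5, 30.4 and 27.6 in TM2, against 24.7, 24.6 and 20.0 in WT, so that TM1 stood apart and TM2 overlapped WT. At T4 both isolates were below WT. CER2 was then at 6.04, 6.63 and 7.34 FPKM in TM1 and 13.0, 11.3 and 9.38 in TM2, against 15.9, 13.4 and 13.6 in WT. The 6 mutant libraries were below all 3 WT libraries at T4 and again at T6, but only TM1 passed the test, in which CER2 relative to WT fell by 1.00 at T4 (adjusted p = 1.8e-06) and by 0.79 at T6 (adjusted p = 0.00011). In TM2 the changes were -0.33 (adjusted p = 0.0971) and -0.32 (adjusted p = 0.12), and with median-ratio scaling the T6 change of -0.41 passed (adjusted p = 0.0374). CER2 overlaps 2 annotated genes of the opposite strand, and whether the counting used strand is not given in the sources used here.

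CER1 (AT1G02205) encodes the alkane-forming enzyme that works with CER3, and was the only one of the 9 measured members called at both T0 and T2. At T0 it was at 17.1, 18.6 and 16.4 FPKM in TM1 and 16.1, 12.4 and 13.0 in TM2, against 6.21, 3.6 and 3.04 in WT. The lowest mutant library was above the highest WT library. The change was 1.84 ± 0.18 in TM1 (adjusted p = 1.2e-08) and 1.53 ± 0.18 in TM2 (adjusted p = 1.6e-07). The T2 values were 60.2, 58.9 and 56.1 FPKM in TM1 and 25.9, 24.7 and 28.5 in TM2, against 6.59, 7.91 and 8.79 in WT. The ratio of mean FPKM to WT was then 7.52 in TM1 and 3.4 in TM2, with log2 changes of 2.77 ± 0.18 (adjusted p = 7.9e-13) and 1.65 ± 0.18 (adjusted p = 6.6e-08). At T4 the transcript was low in every genotype, at 2.52, 2.95 and 1.75 FPKM in TM1 and 4.09, 4.16 and 3.77 in TM2, against 1.02, 1.93 and 1.45 in WT. Only TM2 passed there (1.04, adjusted p = 8.1e-05), and at T6 only TM1 did (0.94, adjusted p = 0.00069). Over the 12 groups the order was TM1 at T2, TM2 at T2, TM1 at T0 and TM2 at T0, none of which overlapped the next group below. From WT at T2 (7.76 FPKM) down to TM2 at T4, each group overlapped the next. CER1 has a close neighbouring copy, CER1-LIKE1, which was not in the table, and how reads shared with it were counted is not given in the sources used here.

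CER3 (AT5G57800), the partner of CER1, was called at no harvest. At T2 it was at 21.0, 20.2 and 21.7 FPKM in TM1 and 9.12, 10.8 and 10.0 in TM2, against 7.1, 10.8 and 7.43 in WT. TM1 alone stood apart, with a change of 1.24 ± 0.15 (adjusted p = 2.2e-07), whereas that of TM2 was 0.24 (adjusted p = 0.29). At T4 the change of CER3 against WT was -0.58 in TM1 (adjusted p = 0.00793), and the change in TM2 was -0.28 (adjusted p = 0.23). At T0 it averaged 7.23 ± 0.74 FPKM in TM1 and 8.74 ± 1.21 in TM2, against 6.44 ± 0.632 in WT, and neither isolate passed.

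The alcohol branch was measured at low depth. WSD1 (AT5G37300), the wax ester synthase, held at most 97 reads in a library. At T2 it was at 6.15, 8.37 and 6.8 FPKM in TM1 and 1.57, 1.27 and 2.18 in TM2, against 0.367, 0 and 0 in WT. These WT values stand for 7 reads in 1 library and none in the others, while TM1 libraries held 64 to 97 reads and TM2 libraries 14 to 23. The log2 change was 2.86 ± 0.19 in TM1 (adjusted p = 1.2e-12) and 1.25 ± 0.19 in TM2 (adjusted p = 1.3e-05). With a pseudocount of 5 WSD1 was not called at T2. At T0 WSD1 was at 0.597, 0.773 and 1.65 FPKM in TM1 and 2.11, 2.47 and 2.06 in TM2, against 0.493, 0 and 0 in WT. The change of 0.78 in TM1 (adjusted p = 0.0064) was under 2-fold on this scale, and that of 1.49 in TM2 (adjusted p = 6.1e-07) was above it. WSD1 was called at T0 with a pseudocount of 0.1, from the recovered reads, or without the libraries lettered A, which include the WT library with 4 reads. At T4 no WT library held a WSD1 read, and TM1 held 2 reads in all. TM2 averaged 3.27-fold the level of 3 reads per WT library. This ratio puts no counting interval on the mutant reads and does not measure plants.

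CER4 (AT4G33790), which encodes the alcohol-forming acyl reductase, never exceeded 20 reads in a library. At T0 the 3 TM1 libraries held 8, 20 and 10 reads and the 3 TM2 libraries 7, 4 and 3, against 0 in each WT library. TM1 averaged 3.13-fold and TM2 1.46-fold the level of 3 reads per WT library, again without a counting interval on the mutant reads. The fitted change passed in TM1 (1.01, adjusted p = 0.00289) but not in TM2 (0.57, adjusted p = 0.0736). At T2, T4 and T6 neither isolate passed, and no difference was detectable at this depth.

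MYB96 (AT5G62470) was higher in both isolates at T2 and T6 and, by a change that rests on the scaling, at T0, each time by under 2-fold. At T2 it was at 47.3, 47.3 and 49.7 FPKM in TM1 and 43.4, 43.6 and 36.5 in TM2, against 27.0, 32.1 and 24.3 in WT. The change was 0.78 ± 0.11 in TM1 (adjusted p = 2.6e-06) and 0.56 ± 0.11 in TM2 (adjusted p = 0.00034). At T6 it was at 33.6, 31.4 and 35.2 FPKM in TM1 and 40.7, 40.4 and 41.7 in TM2, against 23.4, 23.0 and 25.2 in WT, with changes of 0.47 (adjusted p = 0.00546) and 0.75 (adjusted p = 7.4e-06). Mutant and WT libraries did not overlap at either time. At T0 it was higher by 0.33 in both isolates (adjusted p = 0.044 in TM1 and 0.0308 in TM2) and 5 of 6 mutant libraries exceeded every WT library. With median-ratio scaling the T0 change in TM1 was 0.27 and did not pass (adjusted p = 0.0821). At T4 it averaged 47.5 ± 3.0 FPKM in TM1 and 36.4 ± 3.04 in TM2, against 39.7 ± 4.57 in WT, and neither isolate passed. T4 was the harvest at which WT itself was highest.

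**Figure D2:**
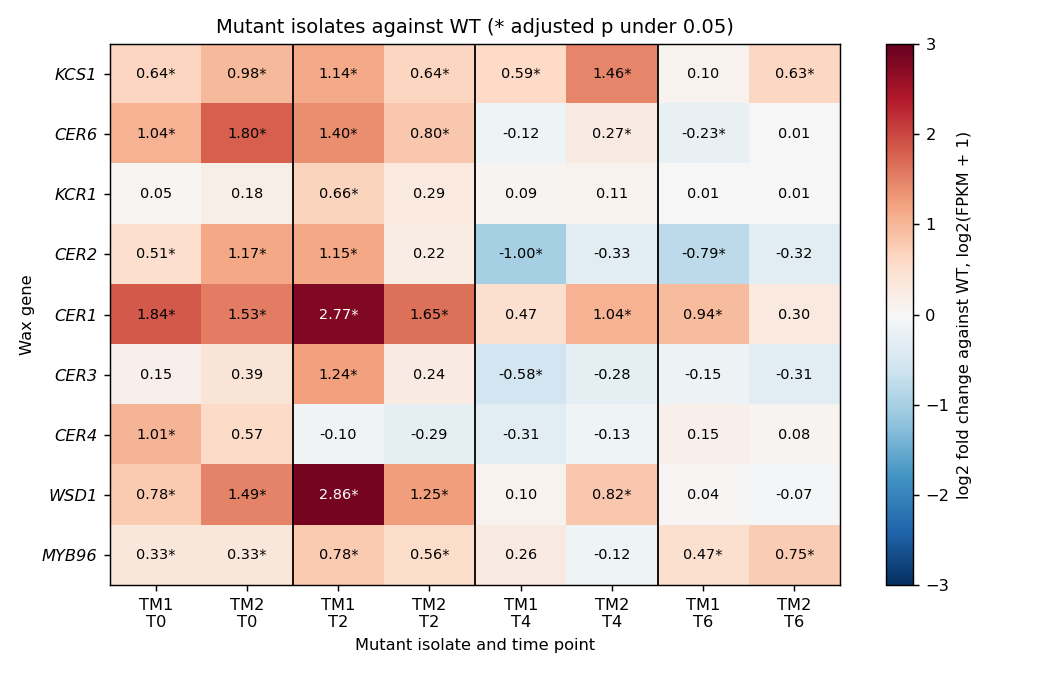
Log2 fold change of each isolate against WT on the log2(FPKM + 1) scale (colour and number), for 9 wax genes (rows) at each harvest, TM1 left of TM2. Asterisks mark an adjusted p under 0.05. CER1 and WSD1 in TM1 at T2 were the highest, at 2.77 and 2.86, and the CER2 row is negative in both isolates at T4 and T6.

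The 6 mutant and 3 WT libraries of a harvest were also compared by a two-sided exact permutation test, whose smallest possible p is 0.0119. The test treats libraries split from 1 pool as separate units, so its p-values do not measure plants. At T0 this value was reached by KCS1, CER6, CER1, CER4 and WSD1. At T2 it was reached by KCS1, CER6, CER1 and MYB96, and at T6 by MYB96. At T4 the lowest was that of KCS1 (exact p = 0.0238). A fit to the 8 mutant and 4 WT pool means with harvest as a term, which sets aside the spread of libraries, called CER1 alone (1.32 ± 0.27, adjusted p = 0.00939), against 0.545% of all genes called higher, and called none with a pseudocount of 5. By adjusted p alone KCS1 (0.77, adjusted p = 0.0154), CER1 and MYB96 (0.42, adjusted p = 0.032) passed, against 7.93%. CER6 (0.62, adjusted p = 0.107) and WSD1 (0.91, adjusted p = 0.0956) did not. The pool fit takes a constant mutant difference over the harvests, so a difference that changed with harvest adds to its residual spread. It does not test T0 or T2 alone.

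The isolates differed from each other in several wax genes. At T0 CER6, CER2 and WSD1 were lower in TM1 than in TM2, by 0.76, 0.66 and 0.71 on the log2 scale, 3 of 9 genes against 1.44% of all genes lower by adjusted p. At T2 these 3 genes were higher in TM1 than in TM2, and so were CER1 and CER3, 5 of 9 against 0.489%. Of these CER1 (1.12 ± 0.18), CER3 (1.00 ± 0.15) and WSD1 (1.61 ± 0.19) were at least 2-fold higher, 3 of 9 against 0.134%. CER3 was not called without the libraries lettered A or C, nor CER1 without those lettered B. WSD1 was not called with a pseudocount of 0.1, and neither WSD1 nor CER3 was with a pseudocount of 5. At T4 KCS1, CER6, CER2 and WSD1 were lower in TM1 (changes of -0.87, -0.39, -0.67 and -0.72), 4 of 9 against 2.55%, and MYB96 was higher by 0.38. At T6 none of the 9 passed, while 2.39% of all genes did in either direction. Each group is 1 pool, so isolate and pool cannot be told apart.

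The harvests were next compared within each genotype. At T2 against T0, all genes together shifted up by a median of 0.15 in TM1, 0.18 in TM2 and 0.13 in WT, and median-ratio scaling took these shifts away. In TM1, 8 of 9 genes were higher at T2 than at T0, against 25.1% of all genes, and of these CER1 (1.70), CER2 (1.21), CER3 (1.42), CER6 (1.50), KCR1 (1.06), KCS1 (1.38) and WSD1 (2.04) were at least 2-fold higher, 7 of 9 against 6.78%. KCR1 was under 2-fold with median-ratio scaling (0.87). In TM2 only KCS1, KCR1, CER1 and MYB96 passed, so that 4 of 9 rose in both isolates against 17.4% of all genes, and CER2 fell by 0.38. With median-ratio scaling KCS1 (0.33, adjusted p = 0.102) and MYB96 (0.14, adjusted p = 0.324) no longer passed in TM2. In WT 6 of 9 rose against 21.0% of all genes, although KCR1 did not pass with median-ratio scaling (0.30, adjusted p = 0.075). CER4 was among the 6 (0.86, adjusted p = 0.00434), with 0 reads in each WT library at T0 and 4 to 19 at T2, so the size of its rise is not resolved. In WT CER6 rose most, by 1.14 (0.98 with median-ratio scaling), to 103.5 ± 9.09 FPKM at T2, against 46.4 ± 2.28 at T0.

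At T4 against T2 most of the wax genes fell in both isolates. In both isolates 7 of 9 genes were lower by adjusted p, against 3.85% of all genes, and CER1 and CER2 fell at least 2-fold in both, 2 of 9 against 0.592%. With median-ratio scaling CER3 and WSD1 no longer passed in TM2 (adjusted p = 0.0766 and 0.068). In WT KCS1, KCR1, CER2 and CER1 were lower, 4 of 9 against 11.5%, of which KCS1 and CER1 fell at least 2-fold, 2 of 9 against 1.34%. CER1 fell by 4.14 in TM1, by 2.45 in TM2 and by 1.84 in WT. KCS1 fell by 2.17 in TM1, by 0.79 in TM2 and by 1.62 in WT. CER2 fell by 2.80 in TM1, by 1.20 in TM2 and by 0.65 in WT. CER6 fell by 1.52 in TM1 and by 0.53 in TM2, and its change in WT was 0.01, which did not pass. MYB96 went the other way in WT, where it rose by 0.50.

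**Figure D3:**
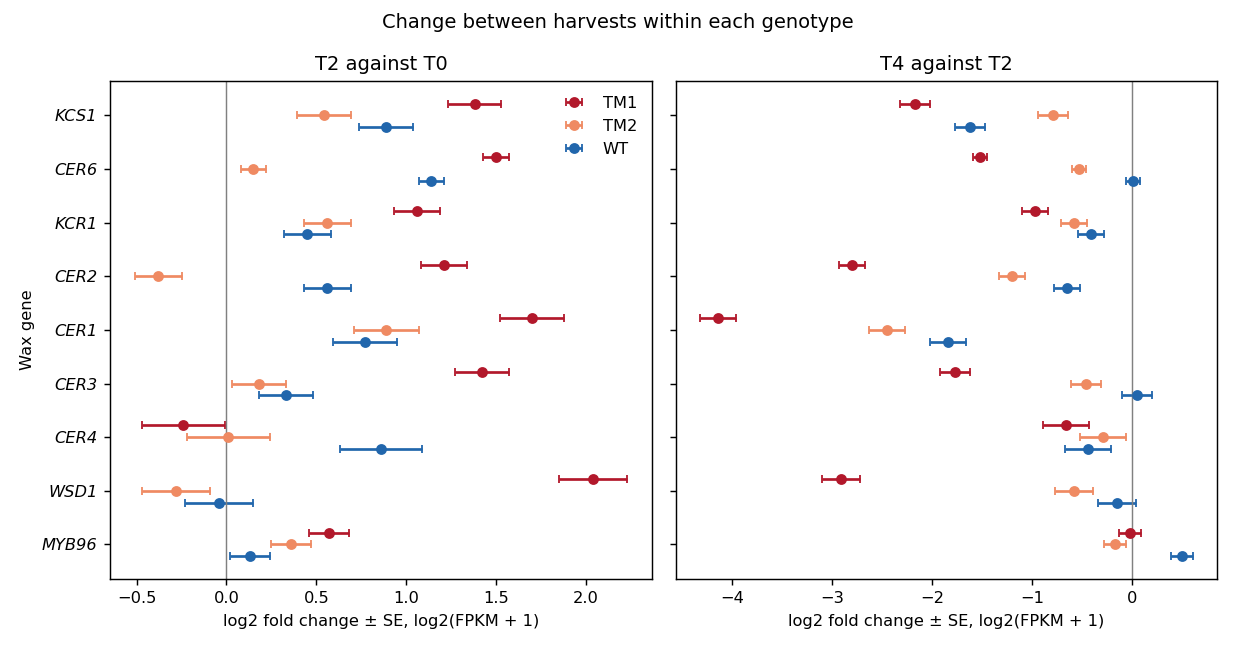
Log2 fold change ± SE of each wax gene between harvests, T2 against T0 (left panel) and T4 against T2 (right panel), with TM1, TM2 and WT drawn from top to bottom for each gene. At T4 against T2 CER1 is farthest left in every genotype, at -4.14 in TM1, -2.45 in TM2 and -1.84 in WT.

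The end of the series differed from its start. At T6 against T0, CER1, CER2 and KCS1 were at least 2-fold lower in both isolates, 3 of 9 against 2.92% of all genes. CER1 fell by 1.45 in TM1 and by 1.78 in TM2, CER2 by 1.50 and 1.69, and KCS1 by 1.33 and 1.14. With a pseudocount of 5 KCS1 was not called. KCS1 and CER1 also fell in WT, by 0.79 (adjusted p = 6.9e-05) and by 0.56 (adjusted p = 0.0165), and CER3 rose there by 0.50 (adjusted p = 0.00956). In WT CER6 alone was called at 2-fold, 1 of 9 against 6.94% of all genes called higher, with a rise of 1.58 to 140.6 ± 8.05 FPKM at T6, against 46.4 ± 2.28 at T0.

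Whether the mutant difference from WT changed with time was tested as an interaction, with the mean of both isolates set against WT. From T0 to T6 the difference fell by 1.53 for CER6, by 1.39 for CER2, by 1.06 for CER1 and by 1.15 for WSD1, 4 of 9 against 1.35% of all genes. Without the libraries lettered B, only CER6 and CER2 were called, and without those lettered C WSD1 was not. WSD1 was also lost with limma voom on recovered reads, and WSD1 and CER1 with a pseudocount of 5. The step between T2 and T4 was tested after the values had been seen. There the difference fell by 1.46 for CER1, by 1.35 for CER2, by 1.17 for CER3, by 1.03 for CER6 and by 1.60 for WSD1, 5 of 9 against 2.97%. CER6 was not called with median-ratio scaling or without the libraries lettered A, WSD1 was not with limma voom on recovered reads, and neither WSD1 nor CER3 was with a pseudocount of 5. For KCS1 the interaction was 0.14 ± 0.18 and did not pass.

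Other wax genes were counted from a list of 23, of which 22 were measured. At T0, KCS2 and WSD6 were called higher, 2 of 22 against 0.869% of all genes, and 7 of 22 were higher by adjusted p against 6.84%, including the wax exporter genes ABCG12 and ABCG11. At T2, KCS2 and KCR2 were called higher, 2 of 22 against 1.74%, and 10 of 22 were higher by adjusted p against 11.3%, while KCS9 and CER26 were lower, 2 of 22 against 6.44%. None was called at T4 or T6. By adjusted p LACS4 and WSD6 were higher at T4 (2 of 22 against 4.10%) and KCS9 and ACC1 lower (2 of 22 against 4.16%). At T6 WSD6 was higher (1 of 22 against 2.68%) and KCS9 and CER26 lower (2 of 22 against 2.40%). The list had a median change of 0.35 (T0), 0.50 (T2), -0.11 (T4) and -0.14 (T6). KCS2, a condensing enzyme also used for root suberin, was at 46.8 to 49.1 FPKM in TM1 and 9.38 to 10.3 in TM2 at T2, against 1.41 to 3.51 in WT, a change of 3.83 in TM1 and 1.68 in TM2. KCR2, a relative of KCR1, averaged 7.76 ± 2.01 FPKM in TM1 and 3.24 ± 0.927 in TM2 at T2, against 0.417 ± 0.342 in WT. WSD6, a wax ester synthase relative, averaged 11.0 ± 0.679 FPKM in TM1 and 12.0 ± 0.269 in TM2 at T0, against 4.66 ± 0.475 in WT.

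Among 9 measured wax regulators of 11 listed, MYB94, a relative of MYB96, was higher in both isolates by adjusted p at every harvest, by a mean of 0.58, 0.78, 0.52 and 0.63 at T0, T2, T4 and T6. DEWAX, a repressor of wax genes, was also higher at T0 (0.87 in TM1 and 1.56 in TM2) and T2 (0.59 and 0.50), and DEWAX2 at T0 (0.44 and 0.96) and T6 (0.62 and 0.88). These were 3, 2, 1 and 2 of the 9 at T0, T2, T4 and T6, against 6.84%, 11.3%, 4.10% and 2.68% of all genes. MYB106 was lower at T4 (-0.83 and -0.94), 1 of 9 against 4.16%. None of the regulators was called at 2-fold in both isolates. Of 10 measured cutin genes of 13 listed, BDG1, an epidermal protein needed for cuticle structure, was the only one called. BDG1 was lower at T4, 1 of 10 against 0.741% of all genes. It averaged 0.649 ± 0.399 FPKM in TM1 and 0.904 ± 0.518 in TM2, against 3.0 ± 0.375 in WT. By adjusted p, CYP86A2 and LACS2 were higher in both isolates at T0 (2 of 10 against 6.84%). LTL1 was lower there (1 of 10 against 3.03%). CYP86A2 and GPAT4 were higher at T2 (2 of 10 against 11.3%). BDG1 and ABCG32 were lower at T4 (2 of 10 against 4.16%), and CYP86A2 and GPAT8 at T6 (2 of 10 against 2.40%). The cutin list had a median change of 0.17 (T0), 0.21 (T2), -0.31 (T4) and -0.26 (T6).

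Markers of the epidermis, the tissue that makes wax, differed in summed level between mutants and WT, though not in every comparison. All 7 were detected in every group, and their summed level at T0 was 296.1 to 332.5 FPKM in TM1 and 358.3 to 376.4 in TM2, against 285.8 to 327.1 in WT, so that TM1 overlapped WT. The sum at T2 was 542.1 to 558.3 FPKM in TM1 and 410.4 to 448.3 in TM2, against 340.8 to 441.5 in WT, so that TM2 overlapped WT. The median change of the 7 was 0.03, 0.19, -0.42 and -0.34 at T0, T2, T4 and T6. At T4 the sum was lower in the mutants, at 219.9 to 230.0 FPKM in TM1 and 232.3 to 258.7 in TM2, against 305.7 to 341.5 in WT, and at T6 it was 194.9 to 212.7 and 219.4 to 234.1, against 269.7 to 289.1. The markers did not move as one. At T0 FDH and PDF2 were higher in both isolates by adjusted p, 2 of 7 against 6.84% of all genes. PDF1 was called lower there (-1.69 in TM1 and -1.97 in TM2), 1 of 7 against 0.520%. At T2 FDH was higher, 1 of 7 against 11.3%, and PDF1 lower (-0.83 and -0.92), 1 of 7 against 6.44%. At T4 ATML1, PDF2 and LTP1 were lower, 3 of 7 against 4.16%, and at T6 LTP1, 1 of 7 against 2.40%. In whole leaves, fewer epidermal cells and less RNA per cell cannot be told apart, and the part of the marker levels in the wax gene results was not tested. None of 5 guard cell or 3 trichome markers passed in both isolates at any harvest. Of 3 phloem markers, SUC2 and SWEET11 were higher in both isolates at T2, 2 of 3 against 11.3% of all genes. SWEET11 was also higher at T6, 1 of 3 against 2.68%. The 3 summed to 100.1 to 116.8 FPKM in TM1 and 92.3 to 107.3 in TM2 at T2, against 60.0 to 66.8 in WT. At T4 the sum was 104.2 to 113.8 and 91.4 to 120.1, against 81.0 to 88.6. At T6 it was 100.2 to 115.1 and 111.6 to 136.4, against 72.8 to 82.9, while at T0 TM1 overlapped WT. Of 3 mesophyll markers, RBCS1A and RBCS1B were lower in both isolates at T0, 2 of 3 against 3.03%. LHCB1.3 was lower at T4, 1 of 3 against 4.16%. Their sum at T4 was 7882.1 to 8876.9 FPKM in TM1 and 6792.6 to 7238.6 in TM2, against 10053.0 to 11626.6 in WT. At T6 it was 8136.7 to 9201.4 and 7456.3 to 7697.1, against 9225.9 to 10110.7. At T0 TM2 overlapped WT, and at T2 TM1 did.

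Genes were ranked by likeness to the called set. Over the 12 group means, the mean profile of CER6, CER1 and WSD1 was compared with 11203 other genes of at least 5 FPKM on average. The highest Pearson r was that of ABCG12 (0.953, n = 12 groups), followed by KCS2 (0.941) and ABCG11 (0.936), all on the list of other wax genes. EXPA16, an expansin gene on none of the lists, was close behind (0.933), and none of the genes ranked 5 to 10 (0.929 to 0.896) was on a wax list. ABCG12 (also CER5) and ABCG11 form the transporters that export wax from epidermal cells. These correlations share libraries and are descriptive. ABCG12 averaged 135.1 ± 5.13 FPKM in TM1 and 95.5 ± 2.4 in TM2 at T2, against 59.5 ± 2.24 in WT. Of the members outside the profile, KCR1 (0.843), KCS1 (0.828) and CER3 (0.827) were closest to it, and MYB96 (0.419) was farthest.

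**Figure D4:**
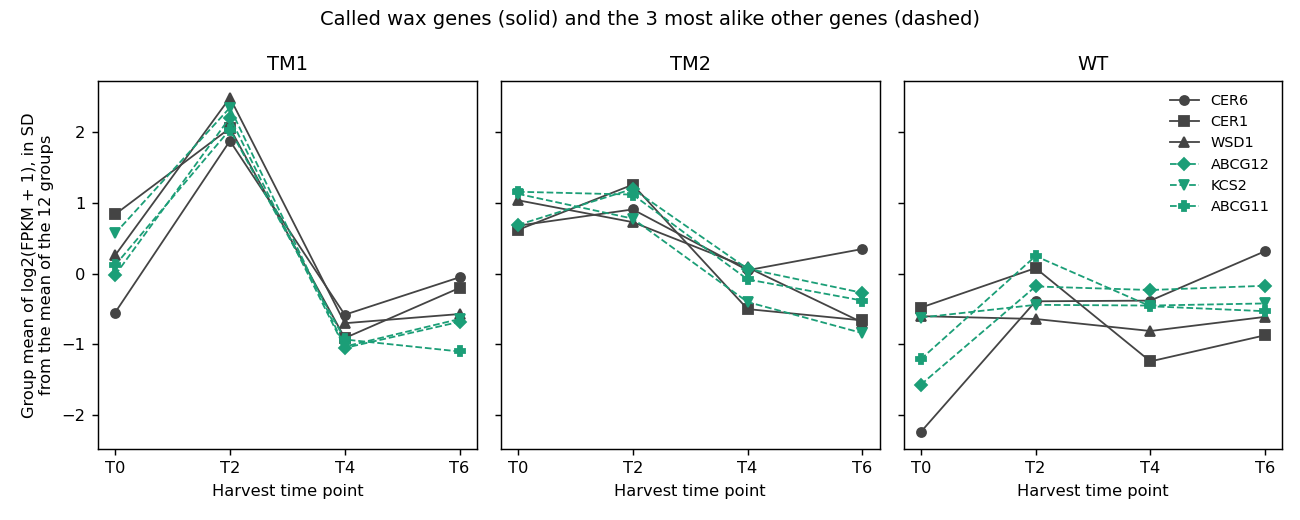
Group means of log2(FPKM + 1), in SD from the mean of the 12 groups, for CER6, CER1 and WSD1 (solid) and for ABCG12, KCS2 and ABCG11 (dashed), by harvest in TM1, TM2 and WT. All 6 genes are highest in TM1 at T2, and in TM1 all 6 are lower at T4 than at T2.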

How the data were processed

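RNA of leaf 6 was measured in 36 directional 3′ libraries, and the authors aligned the reads to TAIR10 with Rsubread, filtered low genes with HTSFilter and deposited FPKM values. The unit was kept. Whole reads per gene were recovered from the FPKM steps for 19437 of 19437 genes (largest distance from a whole number 0.000221, with 0.005 allowed) and served for depth, floors and 1 alternative. limma 3.58.1 (R 4.3.3) was fitted to log2(FPKM + 1) over 12 group means with a trended prior, with Benjamini-Hochberg adjustment over all genes. P-values of the fit to libraries measure the spread between libraries of 1 pool. Those of the pool fit measure the spread of pool means, and the exact tests permuted libraries across pools. SD and exact tests were computed in Python 3.11.15 with scipy 1.17.1. The fit was checked on simulated data. Named genes were the listed set, other wax, regulator or cutin genes called in both isolates at any harvest, the 3 genes most alike, and the mutated genes. MYB94, DEWAX, EXPA16, the list members that passed by adjusted p only and the epidermal markers were named after their values were seen. The set and all lists were chosen with earlier results of these data known. Alternatives were other pseudocounts, a filter, median-ratio scaling, left-out letters, a replicate block, fits to 1 harvest, no fold limit and, added after seeing the data, limma voom on recovered reads.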

Additional observations from a re-analysis of the deposited data

Results flagged for a closer look

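Members whose difference between mutants and WT changed with harvest by a tested interaction of at least 2-fold were CER6 (-1.53), CER2 (-1.39), CER1 (-1.06) and WSD1 (-1.15) at T6 minus T0. At T4 minus T2 they were CER6 (-1.03), CER2 (-1.35), CER1 (-1.46), CER3 (-1.17) and WSD1 (-1.60), all on the log2 scale. Between the isolates at T2, CER1 (1.12), CER3 (1.00) and WSD1 (1.61) differed by at least 2-fold, higher in TM1 than in TM2.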

How the results depend on the processing

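With no fold limit, 6, 5, 1 and 1 of the 9 wax genes were higher than in WT at T0, T2, T4 and T6. Of all genes, 6.84%, 11.3%, 4.10% and 2.68% were. In both isolates, 4 rose at T2 against T0 (17.4% of all genes) and 7 fell at T4 against T2 (3.85%). At T6 against T4, 1 changed in both isolates. In WT 6, 5, 2 and, at T6 against T0, 4 changed. The counts of this paragraph show how calls depend on the setting, and those without a share are not set against all genes. Without that limit 3, 5 and 5 differed between the isolates at T0, T2 and T4, and the pool fit passed 3. With a pseudocount of 5 the calls were 1 at T0, 1 at T2, 2 at T6 against T0, 1 in both isolates and 1 in WT at T4 against T2, 1 between the isolates at T2, 2 and 3 for the interactions at T6 minus T0 and T4 minus T2, and 0 in the pool fit. With a pseudocount of 0.1 they were 4 at T0, 2 in WT at T2 against T0, 5 at T6 against T0, 1 between the isolates at T4 and 2 in the pool fit. limma voom on recovered reads, chosen after seeing the data, gave 4, 2, 5 and 1 for the first 4 of these. Over all genes, the calls higher at T0 moved as well, from 169 to 380 with a pseudocount of 0.1. They were 36 with a pseudocount of 5 and 265 with limma voom. Median-ratio scaling left 1 at T0 and 0 in WT at T2 against T0. The cause was not tested.

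Without 1 letter at a time, calls ranged from 2 to 3 at T0, stayed at 2 at T2 and at 0 at T4 and T6, and ranged from 0 to 1 at T2 against T0 in both isolates, from 1 to 3 in WT, from 1 to 2 at T6 against T0 in WT, and from 2 to 4 for the interaction at T6 minus T0. The log2 fold changes that turned sign, as means of both isolates, all started within 0.12 of 0: KCR1 at T0 (-0.11 to 0.23 without 1 letter) and at T6 (-0.07 with median-ratio scaling, -0.07 to 0.12 without 1 letter), CER4 at T6 (-0.02 to 0.20), and WSD1 at T6 (0 with a pseudocount of 0.1, -0.06 to 0.02 without 1 letter, 0.48 with limma voom). The letters A, B and C do not pair libraries, since 198 same-letter pairs had a median correlation of -0.000154 and 4 were over 0.1. A replicate block on the letter left 2 calls at T0, 2 at T2 and 0 at T4 and T6, and changed no other count. The filter was not run on the pool fit. Where WT libraries held 3 reads or fewer, the size of CER4 and WSD1 differences in WT could not be resolved.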
